A study of Homo sapiens with 6 samples.

Results

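Metallothioneins and the genes of the zinc response were followed in HK-2 cells before and after cisplatin, a platinum drug that is toxic to the kidney tubule. HK-2 is an immortalised cell line derived from the proximal tubule of a human kidney. The set was chosen by gene symbol and holds 10 genes of the 28565 in the count table: MT1A, MT1E, MT1F, MT1G, MT1M, MT1X, MT2A, MTF1, SLC30A1 and SLC39A10. All 10 were found, each in 1 row. The data are 6 RNA-seq libraries of rRNA-depleted RNA, 3 labelled as exposed to cisplatin for 0 h and 3 for 24 h. Every library, those at 0 h included, came from cells transfected with the overexpression plasmid that the sample titles call LncR2. Cells with the negative control plasmid were not analysed here, so a response to cisplatin cannot be told apart from one that depends on the overexpression. The 6 libraries include no untreated cells at 24 h, so cisplatin and time after transfection cannot be told apart either. Nothing in the labels says that libraries of the same time came from separate cultures, so p-values measure only the spread between these libraries, which may be technical. The design text of the series gives 2 biological replicates per treatment, where the labels give 3 libraries per time, so n = 3 counts libraries here and may not count independent cultures.

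Metallothioneins are small cytosolic proteins whose cysteine thiols hold zinc, copper, cadmium and other metal ions, and they are also known to bind platinum. Their genes are switched on by the metal-sensing factor MTF1, which binds metal response elements in promoters when free zinc is high, and by glucocorticoids. MTF1 also activates SLC30A1, which exports zinc through the plasma membrane, and represses SLC39A10, which imports it. The kidney takes up metals from blood and filtrate, and metallothionein is a known inducible metal buffer of its proximal tubule.

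The coding sequences of MT2A and MT1E, the most abundant pair of metallothionein transcripts in these libraries, show what the family shares. They are given 5′ to 3′ from GENCODE 29 transcripts, with in-frame cysteine codons in capitals.
MT2A: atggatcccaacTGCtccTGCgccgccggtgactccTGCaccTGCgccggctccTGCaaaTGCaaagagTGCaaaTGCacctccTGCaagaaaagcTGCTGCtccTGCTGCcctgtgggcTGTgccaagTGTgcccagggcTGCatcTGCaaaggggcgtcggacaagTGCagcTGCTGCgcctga
MT1E: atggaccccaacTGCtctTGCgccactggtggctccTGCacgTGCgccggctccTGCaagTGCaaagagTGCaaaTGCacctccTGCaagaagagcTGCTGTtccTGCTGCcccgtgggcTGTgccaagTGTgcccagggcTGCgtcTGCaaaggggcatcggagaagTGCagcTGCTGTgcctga
Each of these open reading frames has 61 codons before the stop, and 20 of them (32.8%) encode cysteine. The other 5 metallothionein genes of the set also have 20 cysteine codons, MT1G in a frame of 62 codons. MT2A and MT1E were identical at 172 of 186 aligned bases (92.5%), and over all 21 pairs of the 7 genes the identity ran from 88.7% to 94.6%. Reads from such genes can map to several of them, and how such reads were counted is not given in the sources used here. Over all annotated transcripts of a gene, few windows of 75 bases were found unchanged in another gene: 0 of 1446 windows in MT2A, 0 of 1996 in MT1F, 2 of 867 in MT1M and 16 of 1123 in MT1E. The share within the family was highest in MT1G, where 51 of 890 windows (5.73%) were found in other metallothionein loci. Only exact matches were counted, so nearly identical windows counted as unshared. How far reads mapped to several of these genes was therefore not tested. In MT1X 14.3% of windows were shared, but only 1.41% with another metallothionein and the rest with AC026461.1, so the value of MT1X is uncertain with respect to that gene.

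The 7 metallothionein genes lie together on chromosome 16 (GRCh38, GENCODE 29) within 76.0 kb, from 56608199 at the start of MT2A to 56684196 at the end of MT1X. MT2A ends at 56609497, and MT1E follows from 56625475 to 56627112, MT1M from 56632233 to 56633986 and MT1F from 56657694 to 56660698. SLC30A1 lies on chromosome 1 from 211571568 to 211578742, MTF1 on chromosome 1 from 37809567 to 37859620 and SLC39A10 on chromosome 2 from 195575977 to 195737702. The identifiers of MT2A, SLC30A1 and SLC39A10 are ENSG00000125148.6, ENSG00000170385.9 and ENSG00000196950.13.

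Promoters of 5 of the 10 genes were matched in the RefSeq table (GRCh38.p14): MT2A, MT1X, MTF1, SLC30A1 and SLC39A10. The core of the metal response element was searched as TGCACNC or TGCGCNC on both strands of the 250 bases before the RefSeq start site. That site differs from the outermost start of the GENCODE 29 gene: the window of MT2A lies inside the GENCODE span given above, that of MT1X reaches past its GENCODE start at 56682424, and that of SLC30A1 lies wholly upstream of its GENCODE span. Some printed bases are therefore upstream in 1 annotation and within the gene in the other. Of 35116 such windows, 24.8% held at least 1 match, 0.37% at least 4 and 0.0313% at least 7. MT2A held 7, MT1X 4 and SLC30A1 1. Neither the window of MTF1 nor the pair of windows listed for SLC39A10 held these letters. Matches on neighbouring positions can overlap, and a match is a description and not evidence of binding. The windows of the 3 genes with matches are printed 5′ to 3′ on the strand of the gene, matches in capitals, to show where these letters stand.
MT2A, chr16:56608334-56608583, plus strand: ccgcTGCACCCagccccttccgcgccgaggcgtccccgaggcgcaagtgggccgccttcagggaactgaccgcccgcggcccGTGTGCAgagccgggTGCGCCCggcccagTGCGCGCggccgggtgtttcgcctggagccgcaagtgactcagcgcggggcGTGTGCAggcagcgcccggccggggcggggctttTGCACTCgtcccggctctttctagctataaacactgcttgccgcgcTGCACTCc
MT1X, chr16:56682220-56682469, plus strand: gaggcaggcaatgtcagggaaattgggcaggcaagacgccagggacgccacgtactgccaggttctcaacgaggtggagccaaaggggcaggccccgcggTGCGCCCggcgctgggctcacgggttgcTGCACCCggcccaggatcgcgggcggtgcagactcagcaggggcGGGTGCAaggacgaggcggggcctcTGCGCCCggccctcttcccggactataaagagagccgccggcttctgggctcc
SLC30A1, chr1:211579162-211579411, minus strand: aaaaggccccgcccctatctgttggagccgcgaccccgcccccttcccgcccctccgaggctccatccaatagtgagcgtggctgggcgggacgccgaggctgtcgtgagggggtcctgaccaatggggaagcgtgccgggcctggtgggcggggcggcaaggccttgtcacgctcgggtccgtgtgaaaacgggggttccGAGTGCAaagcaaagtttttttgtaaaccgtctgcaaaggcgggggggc
In MT2A the matches began at -246, -168, -153, -139, -88, -54 and -8 relative to the start site. In MT1X they began at -150, -122, -78 and -53. The match of SLC30A1 lay from -49 to -43 on the opposite strand.

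Sequencing depth, as the total of all gene counts, was between 5028881 and 5844246 in the 0 h libraries and between 6022268 and 7248754 in those at 24 h. Of 10 genes of tubule epithelium 9 were expressed above the filter, with KRT8, a keratin of simple epithelia, at 334 ± 29.8 CPM and PAX8, a renal lineage factor, at 409 ± 74.0 CPM at 0 h (mean ± SD, n = 3). KRT18 was at 232, the cadherin CDH2 at 186, CDH6 at 61.8 and EPCAM at 53.1 CPM. The exception was CDH1, the cadherin of many epithelia, with a mean of 0.0651 CPM at 0 h. Of the proximal tubule transport genes, CUBN was at 1.02 and AQP1 at 0.312 CPM. The summed level of 6 such genes was 53.0 to 59.5 CPM at 0 h and 51.6 to 64.9 CPM at 24 h, nearly all of it GGT1, and that of 5 endothelial markers was 0 to 0.398 CPM at 0 h and 0 to 0.855 CPM at 24 h. For 4 leukocyte markers it was 1.79 to 2.59 CPM at 0 h and 1.1 to 2.49 CPM at 24 h. For 6 fibroblast markers it was 15.9 to 18.7 CPM at 0 h and 16.8 to 20.6 CPM at 24 h. Among these, LUM was at 8.98 and COL1A1 at 5.3 CPM on average at 0 h. Library 0 h replicate 3 stood apart from replicates 1 and 2 on the second principal component, at -29.0 where both of those were above 0. On the first component (40.1% of the variance) it was at -0.316, between those replicates (-22.5 and -24.0) and the 24 h libraries (6.75 to 22.2). Values without it are given beside the genes of the set.

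MT2A was by far the most abundant metallothionein transcript at both times, and MT1E the next. Per length, in the deposited FPKM, MT2A was at 534.76, 685.9 and 758.52 in 0 h replicates 1, 2 and 3 and at 631.74, 728.96 and 807.27 at 24 h. MT1E was at 120.01, 148.26 and 171.81 FPKM at 0 h and 136.99, 149.37 and 174.22 at 24 h. The groups overlapped for both genes, 0 h replicate 1 being the lowest library and 24 h replicate 3 the highest. MT2A made up 73.9% to 75.1% of the summed FPKM of the 7 genes at 0 h and 74.6% to 74.7% at 24 h. The share of MT2A was thus nearly constant, whereas the FPKM of MT2A over that of MT1M ran from 25.2 to 34.9 at 0 h and from 26.1 to 30.3 at 24 h.

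MT1F, MT1X and MT1M followed at a much lower level. Their mean FPKM was 31.0 ± 6.39, 26.8 ± 3.92 and 21.0 ± 0.80 at 0 h and 35.7 ± 5.42, 30.8 ± 5.42 and 25.0 ± 1.61 at 24 h (mean ± SD, n = 3). The ranges of MT1F and MT1X overlapped at both times, although MT1F was above MT1X within each of the 6 libraries. Those of MT1X and MT1M overlapped at 24 h and were narrowly separate at 0 h, where the highest MT1M library was at 21.75 and the lowest MT1X library at 22.28 FPKM. MT1G and MT1A were at the limit of detection. MT1G had 2, 2 and 1 reads at 0 h and 1, 4 and 5 at 24 h, and MT1A had 0, 0 and 1 at 0 h and 0, 4 and 0 at 24 h. Of 15 other metallothionein loci looked for, MT1H and the pseudogene MT1JP had 1 read each over all 6 libraries. The other 13 had no row under these symbols in the count table. At this depth a change in these lowest genes was not detectable.

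**Figure D1:**
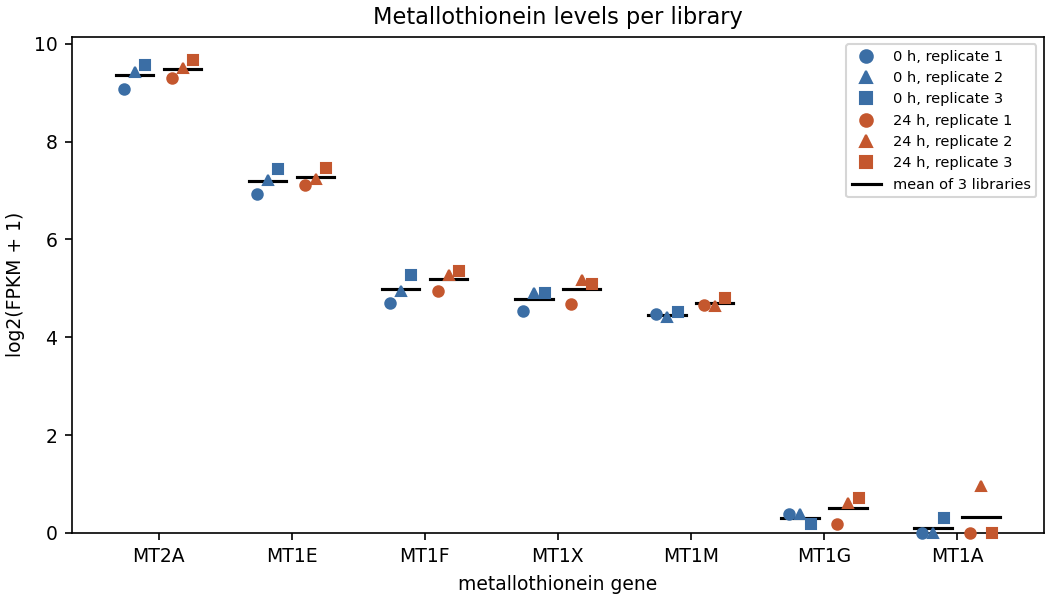
Deposited FPKM of the 7 metallothionein genes, as log2(FPKM + 1) on the vertical axis, in each of the 3 libraries at 0 h (blue) and at 24 h (orange) of cisplatin, with the mean of each group as a bar. MT2A lies highest, MT1E next, MT1F, MT1X and MT1M together below them and MT1G and MT1A near 0, in every library.

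Metallothionein RNA did not differ detectably between 0 h and 24 h. The 7 genes together took 0.126%, 0.160% and 0.173% of all counts in 0 h replicates 1, 2 and 3 and 0.136%, 0.138% and 0.153% at 24 h, so every 24 h library lay within the range at 0 h. In bulk RNA of this kind, fewer cells that express a gene and less of its RNA per cell cannot be told apart. MT2A was at 941, 1190 and 1330 CPM at 0 h and 1010, 1060 and 1140 CPM at 24 h, CPM being a count relative to the TMM-scaled library total. Its log2 fold change of 24 h over 0 h was -0.11 ± 0.13 (standard error of the edgeR model), with a 95% interval from -0.38 to 0.16. MT1E was at 224, 273 and 321 CPM at 0 h and 233, 230 and 262 at 24 h, with a log2 fold change of -0.18 ± 0.12 and an interval from -0.43 to 0.08. The values were -0.04 ± 0.14 for MT1F, -0.04 ± 0.14 for MT1X and 0.01 ± 0.12 for MT1M. Over these 5 genes the intervals reached from -0.43 to 0.27, so a doubling of any of them lies outside its interval. The adjusted p of edgeR's quasi-likelihood test was between 0.491 and 0.966 for the 5, and MT1A and MT1G had too few reads to be tested.

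The sign of these small differences depends on the scaling and on single libraries. Scaling libraries by the totals behind the deposited FPKM shifted the median gene by 0.24 (log2). MT2A was then at 0.13 and MT1E at 0.07. Without 0 h replicate 3 MT2A was at 0.01, MT1E at -0.04, MT1F at 0.14, MT1X at 0.03 and MT1M at 0.05. Without 0 h replicate 1, the lowest library, MT2A was at -0.24, MT1E at -0.30, MT1F at -0.16 and MT1X at -0.15. None of the 18 alternatives tried led to a call for any of the 5 genes, with adjusted p from 0.138 to 0.993.

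Across the 10 genes, edgeR called 0 of the 8 that passed the filter on low counts (Benjamini-Hochberg adjusted p under 0.05 over 13389 genes), where 2.94% of all genes tested were called, 0.866% as higher and 2.08% as lower. DESeq2 also called 0 of them, against 2.97% of the genes it gave an adjusted p. An unadjusted p under 0.05 was found for 2, SLC30A1 and SLC39A10, where 18.1% of all genes had one. The median log2 fold change of the 8 was -0.04, 2 being above 0 and 6 below, against a median of 0.00 for all genes tested with 6657 above and 6732 below.

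MTF1, the zinc-sensing activator itself, was at 49.6, 57.6 and 45.5 CPM at 0 h and 51.9, 47.9 and 50.1 CPM at 24 h. The 24 h libraries lay inside the range at 0 h, and the log2 fold change was -0.03 ± 0.12 with an interval from -0.27 to 0.22 (adjusted p = 0.931 by edgeR). Without 0 h replicate 3 it was -0.10. Per length MTF1 was at 3.62 ± 0.465 FPKM at 0 h and 4.18 ± 0.204 FPKM at 24 h (mean ± SD, n = 3).

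SLC30A1, the zinc exporter ZnT1, was lower in every 24 h library than in any 0 h library. It was at 124, 131 and 157 CPM at 0 h and at 112, 105 and 108 CPM at 24 h. The mean went from 137 ± 17.6 to 108 ± 3.34 CPM (SD, n = 3 each). The log2 fold change was -0.34 ± 0.11 with an interval from -0.57 to -0.12. It missed the threshold (Benjamini-Hochberg adjusted p = 0.0956 by edgeR's quasi-likelihood test). It was the only 1 of the 8 whose CPM groups did not overlap, where 11.7% of all genes lay wholly lower and 10.9% wholly higher at 24 h. In FPKM the groups overlapped, with 12.73, 13.71 and 16.2 at 0 h and 12.62, 13.15 and 13.83 at 24 h. The log2 fold change was then -0.09 by limma on log2(FPKM + 1) with adjusted p = 0.586, against -0.34 on the CPM scale, and without 0 h replicate 3, the highest library, it was -0.23 with edgeR adjusted p = 0.150. Over the 18 alternatives its adjusted p ran from 0.00839 to 0.638.

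SLC39A10, the zinc importer ZIP10, was higher on average at 24 h. It was at 80.8, 83.7 and 122 CPM in 0 h replicates 1, 2 and 3 and at 114, 123 and 147 CPM at 24 h. Only 0 h replicate 3 overlapped the 24 h group, lying above its lowest library. The mean went from 95.5 ± 23.0 to 128 ± 17.2 CPM (SD, n = 3 each). The log2 fold change was 0.42 ± 0.14, its interval from 0.11 to 0.73, and it missed the threshold (edgeR adjusted p = 0.131). Without 0 h replicate 3 the log2 fold change was 0.64 with adjusted p = 2.05e-05, in a fit that called 4.18% of genes as higher. Leaving out any 1 of the other 5 libraries gave 0.30 to 0.50 with no call. With the totals behind the FPKM it was called at 0.66 (adjusted p = 0.00329), where 17.4% of genes were called as higher. Over the 18 alternatives its adjusted p ran from 2.05e-05 to 0.472, and 5 of them led to a call. In FPKM the groups did not overlap, at 8.15, 8.56 and 12.31 at 0 h and 12.58, 15.04 and 18.45 at 24 h, as was also so for MT1M. On that scale 33.3% of all genes tested lay wholly higher at 24 h, so 2 of 8 is not above the background.

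**Figure D2:**
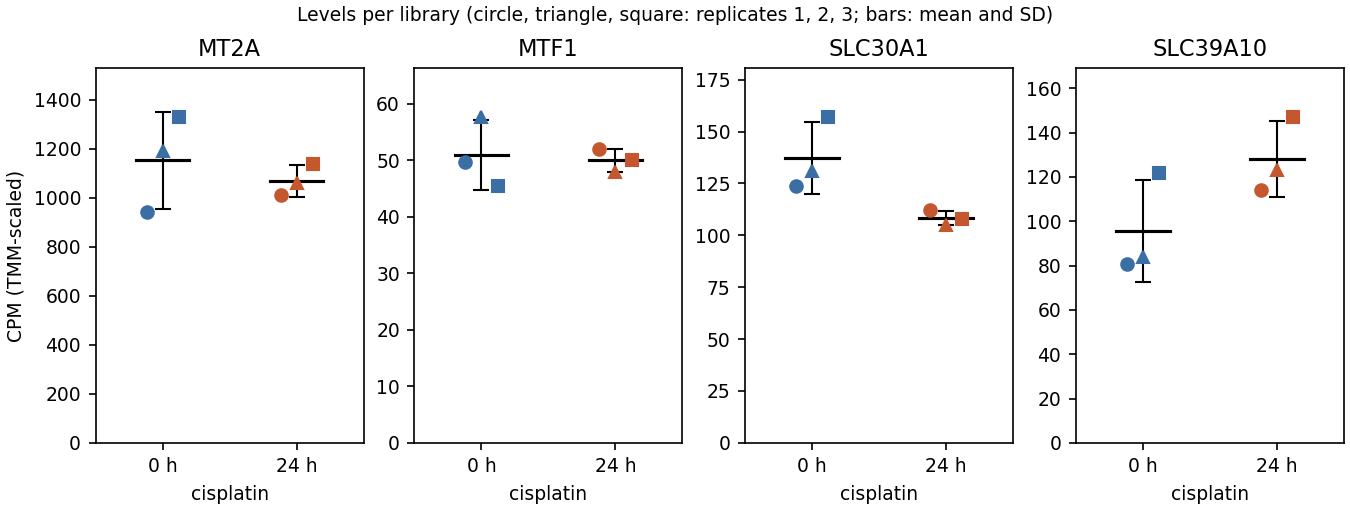
CPM after TMM scaling (vertical axis, from 0) of MT2A, MTF1, SLC30A1 and SLC39A10 in each library at 0 h (blue) and 24 h (orange), with circles, triangles and squares for replicates 1, 2 and 3, a thick bar for the mean and a thin one for the SD of 3 libraries. The groups separate for SLC30A1 alone, and 0 h replicate 3 is the highest 0 h library for MT2A, SLC30A1 and SLC39A10.

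**Figure D3:**
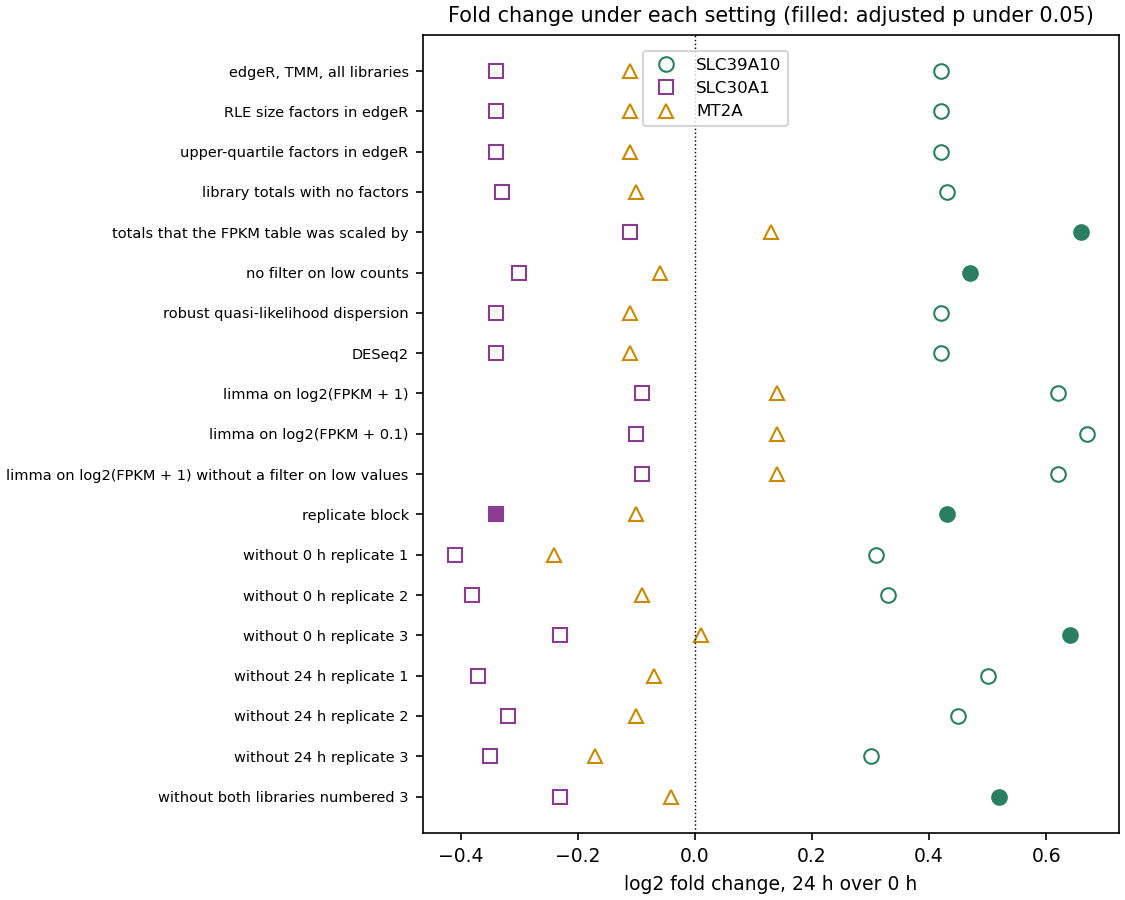
Log2 fold change of 24 h over 0 h (horizontal axis) for SLC39A10, SLC30A1 and MT2A under the edgeR test with TMM and under each of the 18 alternatives, with filled symbols where the adjusted p was under 0.05. SLC39A10 stays above 0 and SLC30A1 below 0 in every row, and MT2A lies on both sides of 0.

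The ratio of SLC39A10 to SLC30A1 reads within a library does not depend on how libraries are scaled. It was 0.653, 0.637 and 0.775 in the 0 h libraries, numbered 1, 2 and 3, and 1.02, 1.17 and 1.36 in the 24 h libraries. The groups did not overlap, and 0 h replicate 3 fell with the other 0 h libraries. This ratio was chosen after SLC39A10 had been seen to be higher and SLC30A1 lower at 24 h, so a separation was likely beforehand. How many other pairs of genes separate in this way was not counted. The ratio is given with no test.

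**Figure D4:**
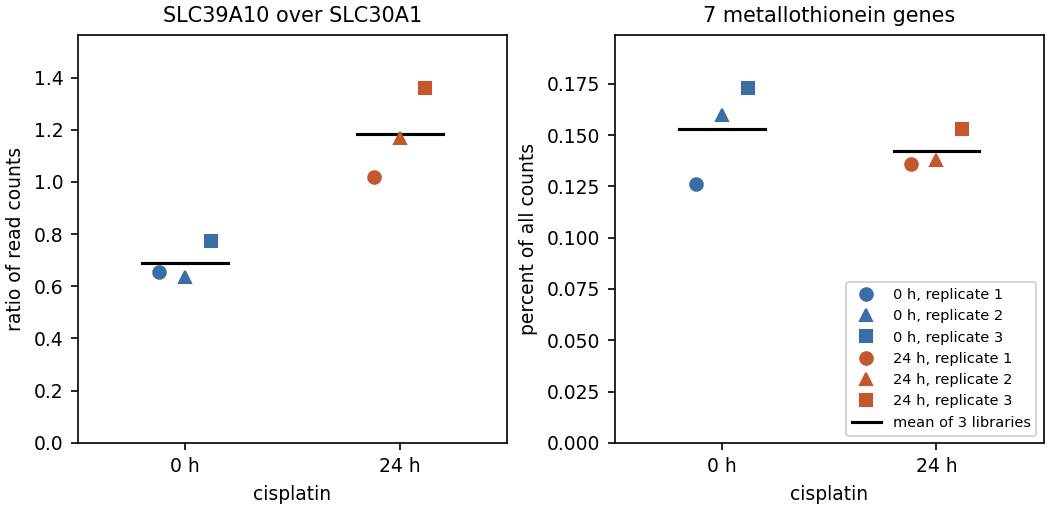
Left, SLC39A10 reads divided by SLC30A1 reads in each library, and right, the percent of all counts taken by the 7 metallothionein genes, at 0 h (blue) and 24 h (orange) with the mean of 3 libraries as a bar. The ratio lies at 0.637 to 0.775 at 0 h and at 1.02 to 1.36 at 24 h, and the metallothionein shares overlap.

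The 2 families of zinc transporters had medians near that of all genes. Of 24 genes of the exporter family SLC30 and the importer family SLC39, SLC30A1 and SLC39A10 included, 21 were in the count table and 17 were tested. EdgeR called 0 of the 17, against 2.94% of all genes, and DESeq2 called 0. An unadjusted p under 0.05 was found for 3, SLC30A1, SLC39A10 and SLC39A4, against 18.1% of all genes. Of 6 exporters tested 3 were higher and 3 lower at 24 h with a median log2 fold change of 0.01, and of 11 importers 8 were higher and 3 lower with a median of 0.05, against 0.00 for all genes. Apart from SLC30A1, the exporter of smallest p above 0 was SLC30A6, at 0.13 ± 0.14, and that below 0 was SLC30A7, at -0.05 ± 0.10, both genes of the secretory pathway. Apart from SLC39A10, the importer of smallest p above 0 was SLC39A4, which takes up zinc in the gut. It was at 13.3, 13.5 and 10.9 CPM at 0 h and 15.3, 20.8 and 14.9 at 24 h. Its groups did not overlap, where 10.9% of all genes tested lay wholly higher in CPM at 24 h. The log2 fold change of SLC39A4 was 0.44 ± 0.18 (adjusted p = 0.201 by edgeR). Below 0 it was SLC39A11, at -0.46 ± 0.27 from a low level of 4.76 CPM. The most abundant transporter per length was SLC39A1, a plasma membrane importer, at 73.2 FPKM at 0 h and 90.6 FPKM at 24 h. In FPKM its groups did not overlap, where 33.3% of all genes tested lay wholly higher at 24 h. In CPM they overlapped, with means of 438 at 0 h and 459 at 24 h and a log2 fold change of 0.07 ± 0.10 on that scale.

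**Figure D5:**
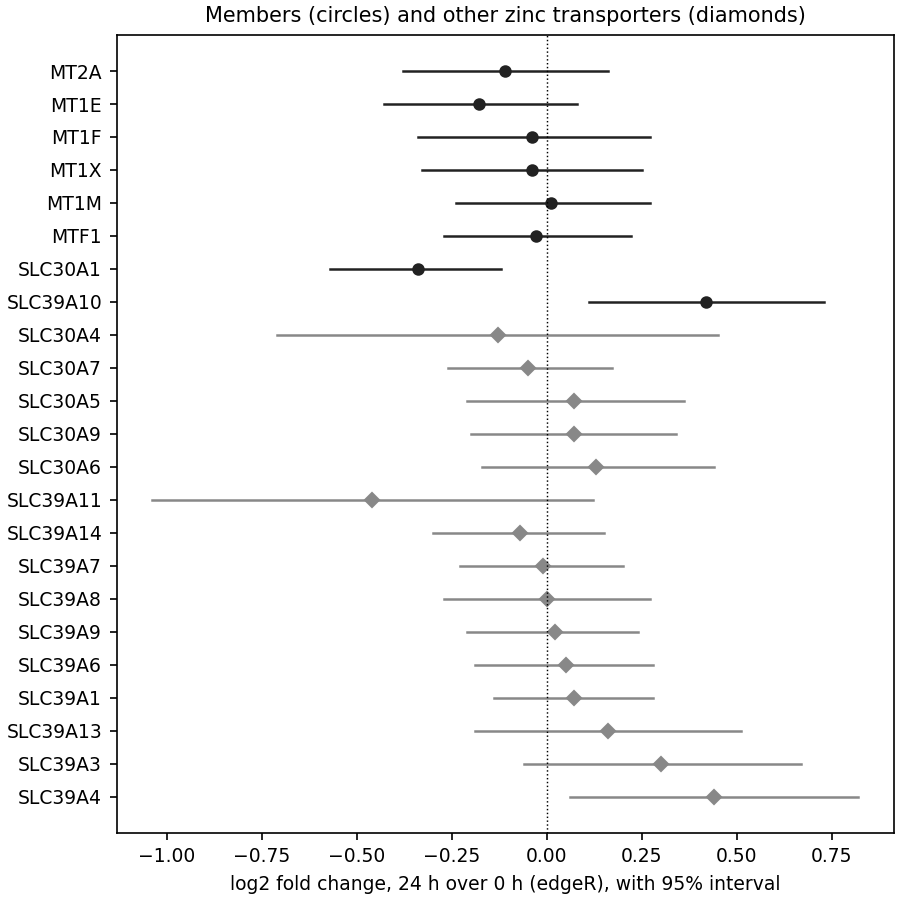
Log2 fold change of 24 h over 0 h with its 95% interval (horizontal axis) for the 8 tested genes of the set (circles) and the other 15 tested zinc transporters (diamonds). The intervals of the 5 metallothioneins and MTF1 include 0, and those of SLC30A1, SLC39A10 and SLC39A4 do not, although none passed the adjusted test.

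Genes that share inducers with metallothioneins were counted in the same fit. Of 12 genes that heavy metals induce through oxidative and heat shock responses, 1 rose and 0 fell, where 0.866% of all genes rose and 2.08% fell, and their median log2 fold change was 0.02. An unadjusted p under 0.05 by edgeR was found for 4 of the 12, against 18.1% of all genes. In CPM 4 of them lay wholly higher and 2 wholly lower at 24 h, against 10.9% and 11.7% of all genes. The called rise was that of HMOX1, heme oxygenase. It was at 208, 218 and 202 CPM at 0 h and 275, 308 and 289 CPM at 24 h. Its groups did not overlap, where 10.9% of all genes tested lay wholly higher at 24 h. The log2 fold change of HMOX1 was 0.47 ± 0.10 (adjusted p = 0.0147 by edgeR). Leaving out 0 h replicate 2 ended its call, as did leaving out replicate 2 or replicate 3 at 24 h, where the log2 fold change stayed at 0.43 or more and the adjusted p reached 0.119. Of 6 tested genes of the glucocorticoid response, 1 rose and 1 fell, against the same shares over all genes, with a median of 0.10. An unadjusted p under 0.05 was found for 4 of the 6, and in CPM 2 lay wholly higher and 2 wholly lower at 24 h. TSC22D3 (GILZ), an anti-inflammatory mediator, fell by 0.67 ± 0.12 on the log2 scale (adjusted p = 0.00406 by edgeR), from 91.7, 72.8 and 93.7 CPM at 0 h to 55.4, 54.6 and 52.2 CPM at 24 h, and was called whichever 1 library was left out. It was not called by limma on FPKM, where its log2 fold change was -0.39 on log2(FPKM + 1) with adjusted p = 0.0689, and its adjusted p over the alternatives ran from 5.2e-05 to 0.142. SGK1, a kinase of sodium transport, rose by 0.50 ± 0.11 (adjusted p = 0.0204 by edgeR), but it was called only without 0 h replicate 3 when 1 library was left out, with adjusted p up to 0.113. SGK1 is named after its value was seen.

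Among libraries, the abundant metallothioneins other than MT1M varied together. The Pearson correlation of log2 CPM over the 6 libraries was 0.967 between MT2A and MT1E, 0.904 between MT2A and MT1F and 0.803 between MT2A and MT1X, against 0.013 between MT2A and MT1M. Pairs among MT1E, MT1F and MT1X ran from 0.655 (MT1E and MT1X) to 0.838 (MT1E and MT1F), and MT1M and MT1X were at -0.526. MT2A and SLC30A1 were at 0.652, and SLC30A1 and SLC39A10 at -0.296. These values describe 6 points that share library depth and preparation. The genes most like MT2A among 10621 ranked were WDR60 (r = 0.993), NCK1 (0.992), PNO1 (0.990), UTP14C (0.990) and EXOC6 (0.988). The gene at rank 100 still had r = 0.946, below the value of MT1E (0.967) but above those of MT1F and MT1X. Correlations this high are therefore not particular to the family. Those most like SLC30A1 were CCNG2 (0.996), CNOT11 (0.988), MME (0.988), TRIM2 (0.987) and BCAT1 (0.982), and the gene at rank 100 still had r = 0.927.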

How the data were processed

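RNA was measured in 6 libraries of HK-2 cells, 3 at 0 h and 3 at 24 h of cisplatin, grouped by the sample titles. The deposited read counts are whole numbers per gene for 28565 genes. The deposited FPKM values cover 28561 genes, rounded to hundredths, with lengths and totals that no label states. The submitters' processing notes name the genome build GRCh38 and the tools bcl2fastq, TopHat2 and edgeR. Read counter, annotation release, use of strand and handling of multi-mapped reads: none is given in the sources used here. Reads carry no molecular identifiers.

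Counts were tested with edgeR 4.0.16 (limma 3.58.1, R 4.3.3): TMM, filterByExpr, quasi-likelihood test, no covariates, Benjamini-Hochberg over 13389 genes, calls at adjusted p under 0.05. The common biological coefficient of variation was 0.103. The limma fits used log2(FPKM + 1), or a pseudocount of 0.1, on genes with at least 0.5 FPKM in at least 3 libraries. Totals behind the FPKM were recovered from count divided by FPKM over 3570 genes with more than 300 counts in every library. The 6 total counts ran from 5028881 to 7248754. Scripts were tested on simulated data. Positions are from GENCODE 29, which holds the same identifier version for 9 of the 10 genes.

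Named were the 10 genes, the zinc transporter of smallest p in each direction per family, the gene of smallest p in each other list, and the 5 genes of highest correlation with MT2A and with SLC30A1 at a mean of at least 5 CPM. The genes and lists were chosen with earlier results of these data known. Alternatives were scaling by RLE, upper quartiles, plain totals or the FPKM totals, no low-count filter, robust dispersion, DESeq2 1.42.0, limma on FPKM, the replicate number as a block and leaving out libraries. Same-numbered libraries did not all deviate together, so the numbers were not taken to pair them.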

Additional observations from a re-analysis of the deposited data

How the results depend on the processing

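The count of called genes among the 10 rested on SLC39A10. Against 0 rises, there was 1 with the FPKM totals (adjusted p = 0.00329), 1 with no filter on low counts (0.00799), 1 without both libraries numbered 3 (0.00261), and 0 to 1 when 1 library was left out, the 1 being without 0 h replicate 3. Falls were 0 in those fits and 0 in every fit that left out 1 library. Among the 24 zinc transporters the rises were 3 with the FPKM totals, 1 with no filter, 1 without both libraries numbered 3 and 0 to 1 with 1 library left out. The replicate block gave 1 rise (SLC39A10, adjusted p = 0.00108) and 1 fall (SLC30A1, 0.00839) in both sets, and it called 12.7% of all genes. Deviations of same-numbered libraries from their group means correlated at 0.229, -0.024 and 0.401. Those of differently numbered libraries ran from -0.355 to 0.219. The numbers therefore do not establish pairs, and whether same-numbered libraries shared a batch was not tested. SLC39A10 kept its sign in 18 of 18 alternatives, from 0.30 to 0.67, as did SLC30A1, from -0.41 to -0.09. These fits reuse the same libraries, and SLC39A11, EXOC6 and CCNG2, which none of them called, also kept their sign in 18 of 18. The share of all genes called was 2.94%, against 18.9% with the FPKM totals, 5.49% by limma on log2(FPKM + 1) and 0.112% without its filter, 6.30% without both libraries numbered 3, and 0.826% (without 24 h replicate 2) to 10.9% (without 0 h replicate 3) with 1 library left out. The cause was not tested.

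Signs near 0 turned with the scaling, which shifted the median of all genes by up to 0.24 on the log2 scale. With the FPKM totals, then by limma on log2(FPKM + 1), with and without its filter, and on log2(FPKM + 0.1), the values were 0.07 on each for MT1E, 0.20, 0.21 and 0.22 for MT1F, 0.20, 0.19 and 0.20 for MT1X, 0.13, 0.14 and 0.14 for MT2A, 0.21, 0.17 and 0.21 for MTF1, 0.19, 0.16 and 0.19 for SLC30A7, 0.11, 0.08 and 0.12 for WDR60, 0.12, 0.12 and 0.13 for NCK1, 0.17, 0.16 and 0.17 for PNO1, 0.19, 0.14 and 0.18 for UTP14C, 0.03 on each for CNOT11, and 0.09, 0.06 and 0.09 for MME. With no filter on low counts MT1F and MT1X were at 0.01, MTF1 at 0.02 and SLC30A7 at 0.00. Without both libraries numbered 3 MT1F was at 0.09 and MT1X at 0.01. With 1 library left out, the range was -0.16 to 0.14 for MT1F, -0.03 to 0.06 for MT1M, -0.15 to 0.05 for MT1X, -0.24 to 0.01 for MT2A, -0.10 to 0.07 for MTF1, -0.01 to 0.24 for SLC30A6, -0.09 to 0.00 for SLC30A7, -0.27 to 0.02 for WDR60, -0.24 to 0.01 for NCK1, -0.17 to 0.03 for PNO1 and -0.12 to 0.01 for UTP14C. None of these values was called. Genes with few reads, MT1A and MT1G, are limited by depth.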
